A study of Mus musculus with 6 samples.

Results

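The deposited table held 8 autosomal long noncoding RNAs picked for description here, Sox2ot, Neat1, Meg3, A330023F24Rik, A930011O12Rik, Malat1, Miat and Rian, out of 475 genes in all. They were chosen by gene symbol with their group values known, so their direction and size are described here without a test. The table lists genes that the authors called changed in the mouse hippocampus, the brain region of contextual memory. The mice of both groups were C57Bl/6 animals aged 4 months that had learned a contextual fear, recalled it and then gone through spaced extinction training. The 3 mice of the CI-994 group were given CI-994, an inhibitor of class I histone deacetylases, at 30 mg/kg daily, and the 3 control mice were given its vehicle. The tissue of both groups was taken 1 h after extinction training ended, and total RNA came from the whole hippocampus of one hemisphere.

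Long noncoding RNAs are transcripts without a long open reading frame, and several of those named here stay in the nucleus. Neat1 is the scaffold of paraspeckles, nuclear bodies that hold RNA-binding proteins, and Malat1 gathers at nuclear speckles, which store splicing factors. Meg3 and Rian are made from the maternal copy of the imprinted Dlk1-Dio3 domain, and other members are the primary transcripts from which microRNAs are cut. Histone deacetylases remove acetyl groups from histones, so their inhibitors change transcription at many loci.

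Each gene had 1 value per group, in arbitrary units, made by the authors from the 3 libraries of that group. No spread between mice came with these values, so no test across mice was possible here, and every p-value below is the one in the authors' deposited table. That column is not called adjusted, and all of its values lie under 0.05, so the table holds listed genes only. Directions follow the labels of the group values. The header over the authors' log2 values names CI-994 over vehicle, yet in all 475 genes the values equal the log2 of vehicle over CI-994 within a tolerance of 0.0001. If the group labels rather than that header were exchanged, every direction below would turn around.

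All 8 RNAs were higher in CI-994 mice than in vehicle mice. Over all genes 41.9% were higher in CI-994 and 58.1% lower. The count of members is not read against these shares, because the members were chosen on the same contrast. Their log2 ratios of CI-994 over vehicle ran from 0.56 to 1.41, with a median of 0.75, beside a median of -0.34 over all 475 genes and 0.82 over the 199 genes that were higher. The members' median thus lay slightly below that of the higher genes. Of the 8, Sox2ot and Neat1 were at least 2-fold higher, as were 16.8% of the genes in the table. In the authors' deposited table all 8 had a p-value up to 0.01, beside 49.7% of all genes (23.6% with such a p and higher in CI-994), and 6 of the 8 had one up to 0.001, beside 25.9% of all genes (14.5% with such a p and higher).

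**Figure D1:**
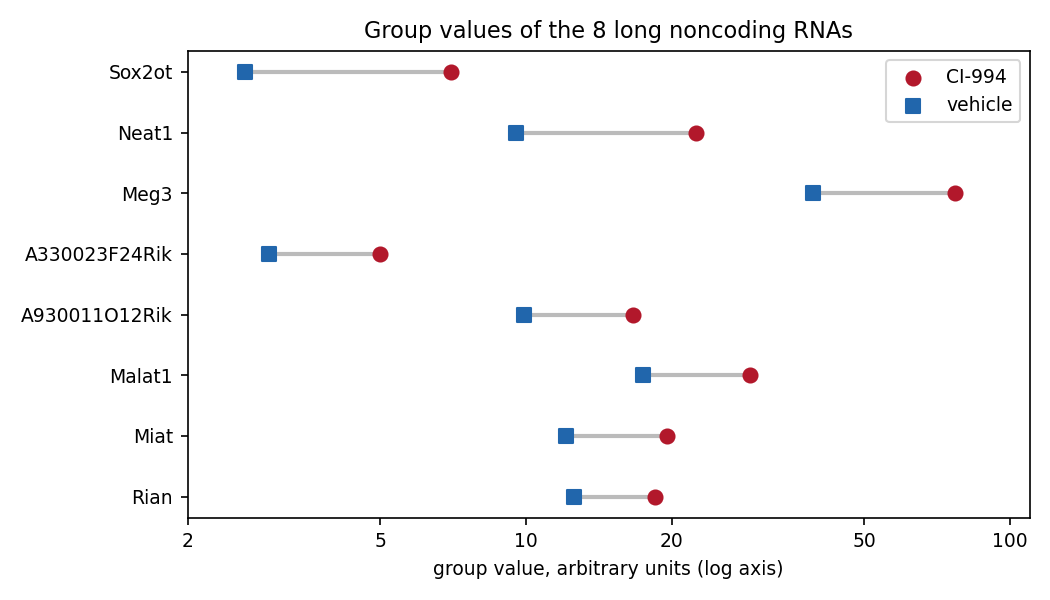
Group value of each of the 8 RNAs in arbitrary units on a log axis, with red circles for CI-994 and blue squares for vehicle, each a single value that the authors made from 3 mice. The CI-994 value lies to the right of the vehicle value in every row, and the distance is longest for Sox2ot (7.01 in CI-994 and 2.63 in vehicle) and shortest for Rian (18.5 in CI-994 and 12.5 in vehicle).

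RNAs of nuclear bodies came from a pair of neighbouring loci on chromosome 19. Neat1 was at 22.5 units in CI-994 and 9.53 units in vehicle, 2.36-fold higher (log2 ratio 1.24). Its p-value in the authors' deposited table was 2.95e-11, the lowest of the 8 and 15th lowest of all 475. Malat1 was at 29.0 units in CI-994 and 17.5 units in vehicle, 1.66-fold higher (log2 ratio 0.73), with a p-value of 1.6e-06 in the authors' deposited table. Both RNAs were thus higher in CI-994, and the log2 ratio of Neat1 exceeded that of Malat1 by 0.51. Without values per mouse, that difference could not be set against an error.

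In mm9 coordinates, as the authors' table gives them, Neat1 lies on chromosome 19 from 5842301 to 5845478 and Malat1 from 5795689 to 5802671, with a gap of 39.6 kb between them. The Neat1 locus of the table covers 3.18 kb. The RefSeq gene on GRCm38.p6 covers 20.8 kb and has 2 curated transcripts, so the table's row spans 15.3% of it. Neat1 is known to be made as a short and a long RNA that share their start, and the long one is needed for paraspeckles. The single row of the table does not tell these RNAs apart. Malat1 has a single-exon transcript of 6983 bases in GENCODE M21, and its locus in the table spans 6.98 kb. RefSeq places the mascRNA, a small tRNA-like RNA cut from the end of Malat1, inside the same gene.

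Proteins that meet these RNAs in the nucleus were looked up by name. Of 20 paraspeckle proteins, among them Sfpq, Nono and Pspc1, 0 were listed. Of 37 speckle and splicing genes 1 was listed, the neuronal splicing regulator Rbfox1, which was at 126 units in CI-994 and 156 units in vehicle (log2 ratio -0.30). Its p-value in the authors' deposited table was just under 0.05 and the highest of all genes listed. Genes outside the table were not analysed here, so their levels are not known. The share of all measured genes that the authors listed is not known either, so these counts are not read as few or many.

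The imprinted RNAs came from the Dlk1-Dio3 domain of chromosome 12. Meg3 was at 77.2 units in CI-994 and 39.2 units in vehicle, 1.97-fold higher (log2 ratio 0.98), with a p-value of 0.000109 in the authors' deposited table. Rian, which carries clusters of small nucleolar RNAs and microRNAs in its introns, was at 18.5 units in CI-994 and 12.5 units in vehicle, 1.47-fold higher (log2 ratio 0.56). Its p-value in the authors' deposited table was 0.00194, the highest of the 8. Both neighbours were higher in CI-994, Meg3 by 0.42 log2 units more than Rian. In mm9, Meg3 lies from 110779205 to 110809939 and Rian from 110842154 to 110899921, 32.2 kb apart. The other genes of the domain on the list of imprinted genes, Dlk1, Rtl1, Mirg and Dio3, were not among the genes listed. RefSeq draws the protein-coding Rtl1 across both loci, and how read strand was handled was not given in the sources used here, so reads from Rtl1 cannot be told apart from theirs.

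Imprinted genes elsewhere did not share a direction. Of 62 imprinted genes other than Meg3 and Rian, 59 were not in the table, 2 were higher and 1 was lower. The growth factor Igf2 was at 41.1 units in CI-994 and 15.8 units in vehicle (log2 ratio 1.38). The cyclin-dependent kinase inhibitor Cdkn1c was at 6.31 units in CI-994 and 3.13 units in vehicle (1.01). Necdin (Ndn), a growth suppressor of neurons, was at 91.3 units in CI-994 and 130.5 units in vehicle (-0.52). For these 3 genes the authors' deposited table gave p-values of 1.32e-09 for Igf2, 0.0282 for Cdkn1c and 0.00103 for Ndn.

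The start region of Meg3 is shown because it holds the letters of a full cAMP response element, the site bound by CREB, a transcription factor of neuronal activity, and that of Malat1 because it holds several copies of the half-site. Both are RefSeq sequences on GRCm38.p6, from 250 bases before to 50 bases after the annotated start, 5′ to 3′ on the gene's strand, with TGACG and its complement CGTCA in capitals. Meg3 is at chr12:109540746-109541045 on the plus strand and Malat1 at chr19:5802623-5802922 on the minus strand.
Meg3: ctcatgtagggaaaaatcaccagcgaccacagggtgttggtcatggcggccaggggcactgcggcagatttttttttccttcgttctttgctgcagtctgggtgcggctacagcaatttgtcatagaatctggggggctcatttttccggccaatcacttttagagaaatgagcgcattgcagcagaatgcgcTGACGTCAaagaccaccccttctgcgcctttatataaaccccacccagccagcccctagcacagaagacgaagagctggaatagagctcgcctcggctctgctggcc
Malat1: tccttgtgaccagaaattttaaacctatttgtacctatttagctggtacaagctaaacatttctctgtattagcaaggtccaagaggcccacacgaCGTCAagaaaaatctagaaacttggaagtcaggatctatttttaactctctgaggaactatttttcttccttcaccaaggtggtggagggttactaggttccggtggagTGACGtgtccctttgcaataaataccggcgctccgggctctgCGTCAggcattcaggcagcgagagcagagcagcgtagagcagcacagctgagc
The palindrome TGACGTCA begins 57 bases before the start of Meg3, and 1.79% of the 32851 RefSeq start regions of this length hold it. It contains the half-site on both strands, and these overlapping copies, 57 and 54 bases before the start, are the 2 half-sites of Meg3. Malat1 has 3 half-sites, which begin 154, 45 and 3 bases before the start, and 1.03% of start regions hold at least 3. As both regions were picked for these letters, the shares only describe how common the letters are. A TATA box (TATAAA, either strand) was found 2 times in Meg3, as a pair that overlap on opposite strands, and 0 times in the other members with an entry, and 13.6% of all start regions hold one.

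RefSeq start regions were matched for 5 of the 8 members, and those of Miat, Rian and A330023F24Rik, as well as a second start of Meg3, held neither TGACG nor CACGTG (an E-box) on either strand. TGACG is present in 20.8% and CACGTG in 7.15% of all start regions. The start region of Miat had 25 CG dinucleotides and that of Rian 0, beside a median of 7 over all start regions. The 5 members with an entry thus shared neither a CG-rich start region nor any of these letters.

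The transcript beside a stem cell gene had the largest ratio of the 8. Sox2ot, a long transcript whose intron holds Sox2, a transcription factor of neural stem cells and glia, was at 7.01 units in CI-994 and 2.63 units in vehicle, 2.66-fold higher (log2 ratio 1.41). Its p-value in the authors' deposited table was 0.000318. In mm9 it lies on chromosome 3 from 34459302 to 34576915, the longest locus of the 8 at 117.6 kb, and GENCODE M21 gives it 18 transcripts. RefSeq places Sox2 and Mir1897 within its span. Sox2 itself was not among the genes listed. As Sox2ot and Sox2 overlap, reads shared between them cannot be told apart here.

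The microRNA host genes A330023F24Rik and A930011O12Rik had close ratios. A330023F24Rik was at 4.98 units in CI-994 and 2.94 units in vehicle, 1.69-fold higher (log2 ratio 0.76), with a p-value of 0.00159 in the authors' deposited table. A930011O12Rik was at 16.6 units in CI-994 and 9.91 units in vehicle, 1.68-fold higher (log2 ratio 0.75), with a p-value of 4.87e-05 in the authors' deposited table. RefSeq now calls this gene Mir124a-1hg, with Rncr3 as another name. It lies in mm9 on chromosome 14 from 65206951 to 65212798, and A330023F24Rik on chromosome 1 from 196843592 to 196864102. A host RNA and the mature microRNA cut from it are different molecules, and the values above are those of the host genes.

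Within the RefSeq spans of the 8 genes lie 10 microRNA genes, and mature sequences were at hand for 8 of them. The 3p sequences of 5 that lie in A330023F24Rik, Meg3 and Rian are shown with the seed, bases 2 to 8, in capitals, because the seed is the part that pairs with target RNAs. The sequences are RefSeq's on GRCm38.p6, all on the plus strand, 5′ to 3′.
miR-29b-3p (in A330023F24Rik, chr1:195037091-195037113): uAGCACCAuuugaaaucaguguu
miR-29c-3p (in A330023F24Rik, chr1:195037600-195037621): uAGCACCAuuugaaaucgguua
miR-770-3p (in Meg3, chr12:109563744-109563765): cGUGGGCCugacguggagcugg
miR-341-3p (in Rian, chr12:109611556-109611576): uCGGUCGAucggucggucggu
miR-370-3p (in Rian, chr12:109618305-109618326): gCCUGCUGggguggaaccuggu
The first pair share the seed AGCACCA, which only miR-29a-3p also has among the mouse microRNAs of this collection, and they are identical over their first 17 bases. The remaining seeds shown are each found in 1 mature microRNA. The span of Rian also contains 11 small nucleolar RNA genes. The microRNAs were not measured here, and reads of the host give no level for them.

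Miat, also called Gomafu, is a neuronal RNA that is kept in the nucleus and binds the splicing factor SF1 through repeats of UACUAAC, the letters of an intron branch point. It was at 19.6 units in CI-994 and 12.1 units in vehicle, 1.61-fold higher (log2 ratio 0.69), with a p-value of 4.75e-06 in the authors' deposited table. In mm9 it lies on chromosome 5 from 112642247 to 112657968. Its longest GENCODE M21 transcript, of 9163 bases and 7 exons, has TACTAAC 6 times on the sense strand, while that of Neat1 has it 1 time and those of the other 6 members 0 times. Of 3828 lincRNA transcripts of at least 1000 bases, 5.75% have it, and the 2 that have it at least 5 times are both from Miat. The stretch with the most copies is shown, with TACTAAC in capitals, from bases 4933 to 5072 of the transcript in its last exon (GRCm38, chr5:112217319-112217458, minus strand).
Miat: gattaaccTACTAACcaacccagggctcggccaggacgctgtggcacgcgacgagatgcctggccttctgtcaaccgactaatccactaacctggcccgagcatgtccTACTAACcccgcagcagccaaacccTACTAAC

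Other noncoding genes of the table had the same direction. RefSeq held 474 of the 475 genes, 36 under a synonym, and annotated 11 as long noncoding RNAs, of which 9 are autosomal and 2 X-linked. All 11 were higher in CI-994, as were 41.9% of all genes, and the 462 protein-coding genes comprised 187 higher and 275 lower. The ninth autosomal RNA, Snhg11, a host of small nucleolar RNAs, was at 66.0 units in CI-994 and 33.4 units in vehicle (log2 ratio 0.98). Its p-value in the authors' deposited table was 3.98e-10, the lowest among the autosomal RNAs after Neat1, and it is not one of the 8 because its symbol was not on the list of members. The X-linked RNAs were Xist, which coats the inactive X chromosome, and 6720401G13Rik, now called Firre. Xist was at 25.3 units in CI-994 and 8.46 units in vehicle (log2 ratio 1.58), with a p-value of 1.48e-13 in the authors' deposited table. It is set beside the Y-linked genes below, so its direction is not read as one more case like the 8. Firre was at 2.84 units in CI-994 and 1.37 units in vehicle (log2 ratio 1.05). Its p-value in the authors' deposited table was 0.0137, the highest of the 11. As Firre is X-linked like Xist, its direction is not read as one more case either. A list of 77 further symbols of long noncoding RNAs, some of them other names of members, added 3 genes of the table to the 8, namely Snhg11, Xist and Firre, all higher.

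**Figure D2:**
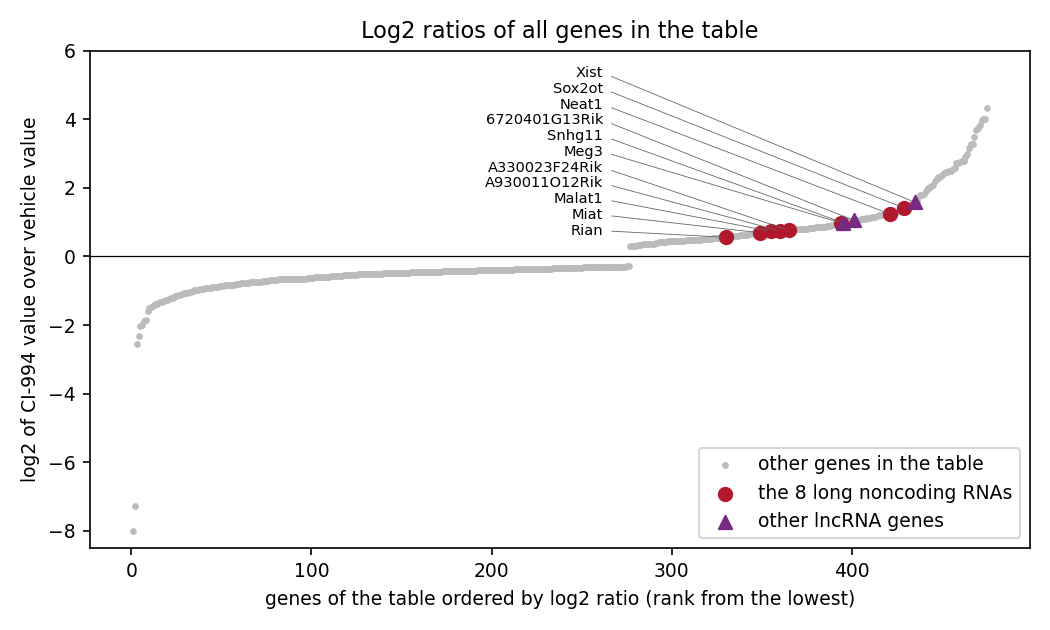
Log2 ratio of CI-994 over vehicle (vertical axis) for all 475 genes ordered from lowest to highest (horizontal axis), with the 8 RNAs as red circles, the other 3 long noncoding RNA genes as purple triangles and the remaining genes in grey. The coloured points all lie above 0, from Rian at 0.56 to Xist at 1.58, and below the largest ratios of the table.

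The groups also differed in genes outside this class, and their values are given beside the ratios above. The Y-linked Ddx3y was at 0.0503 units in CI-994 and 7.73 units in vehicle, and Uty at 0.00821 units in CI-994 and 2.12 units in vehicle. The X-linked Xist went the other way, with 25.3 units in CI-994 and 8.46 units in vehicle. No sex is recorded in the labels, and the makeup of the groups by sex was not tested. Since each group has a single value, the difference in Xist and the Y-linked genes and the treatment cannot be told apart, for the 8 RNAs as well. Of 30 choroid plexus markers 28 were in the table, all higher in CI-994, with a summed level of 681 units in CI-994 and 154 units in vehicle. Enpp2 alone gave 377 units of this sum in CI-994 and 75.3 units in vehicle. None of the 28 was below 1 unit in CI-994 and 13 were in vehicle. Of 27 dentate granule cell markers 21 were in the table, all lower, with a summed level of 256 units in CI-994 and 494 units in vehicle. Among all 475 genes 41.9% were higher in CI-994 and 58.1% lower. Both marker lists were chosen with earlier results of these data known, so their counts and shared directions are not read as a result. The part of cell makeup in the ratios of the 8 RNAs was not tested, and in whole tissue fewer cells of a type and less RNA per cell cannot be told apart. Of the general neuronal, astrocyte, oligodendrocyte and endothelial markers 1 each was listed, Nefm (log2 ratio 0.31), Aqp4 (-0.34), Hapln2 (0.72) and Vwf (-0.51), and of 12 microglial markers 0.

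**Figure D3:**
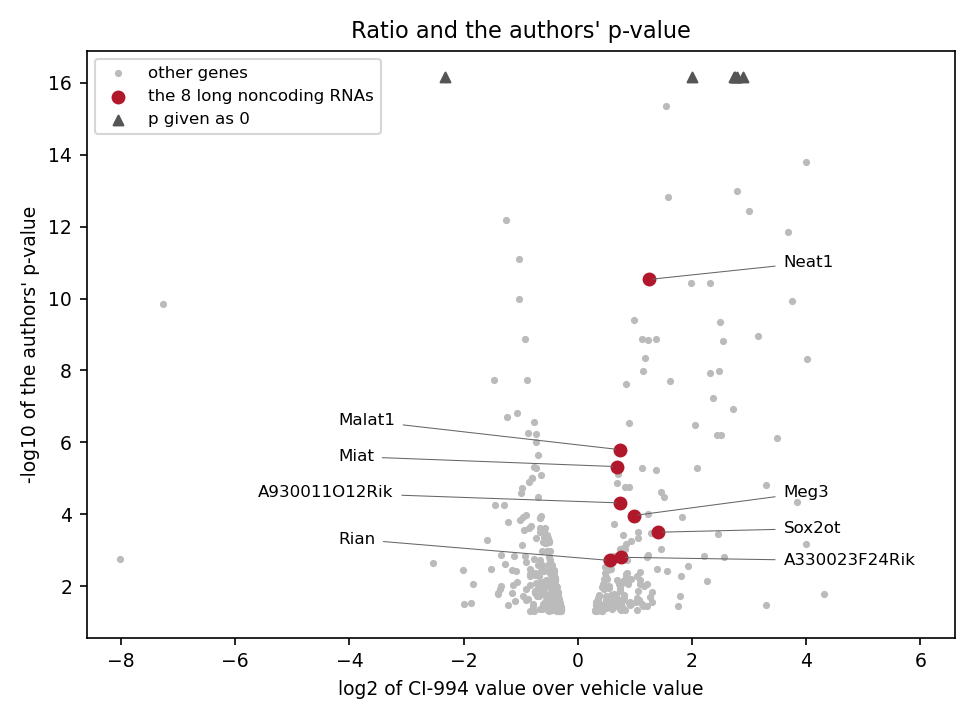
Log2 ratio of CI-994 over vehicle (horizontal axis) against -log10 of the p-value in the authors' deposited table (vertical axis) for all genes, with the 8 RNAs in red and the 6 genes whose p was given as 0 as triangles at the top. Neat1 has the lowest p of the 8 at 2.95e-11, while Sox2ot has the largest ratio with a p of 0.000318.

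Listed protein-coding genes close to the 8 RNAs went in either direction. Within 1 Mb of a member in mm9 the table held 5 other genes. Npas4, an activity-dependent transcription factor 806 kb from Malat1 and 852 kb from Neat1, was at 4.43 units in CI-994 and 0.887 units in vehicle (log2 ratio 2.32). Ehd1, an ATPase of endocytic recycling 431 kb on the other side of Neat1, was at 26.6 units in CI-994 and 34.4 units in vehicle (-0.37). Ttc14 lay 716 kb from Sox2ot and was at 7.44 units in CI-994 and 5.44 units in vehicle (0.45). The authors' deposited table gave p-values of 1.18e-08 for Npas4, 0.0216 for Ehd1 and 0.00963 for Ttc14.

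The listed protein-coding gene closest to any of the 8 had the opposite direction. Cd34, a surface glycoprotein of endothelium and blood progenitors 40.4 kb from A330023F24Rik, was at 16.7 units in CI-994 and 23.8 units in vehicle (log2 ratio -0.51). Sez6l, a neuronal membrane protein 190 kb from Miat, was at 69.5 units in CI-994 and 86.3 units in vehicle (-0.31). In the authors' deposited table the p-values of both were close to the bound of 0.05, at 0.0488 for Cd34 and 0.0372 for Sez6l. Around Meg3, Rian and A930011O12Rik the table held no other gene within 1 Mb except Meg3 and Rian themselves. Of 60 genes listed as lying beside the members 4 were in the table, Cd34 and Sez6l and, over 1 Mb from Sox2ot, Mccc1 (0.60), a subunit of methylcrotonyl-CoA carboxylase, and Atp11b (0.51), a phospholipid flippase.

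**Figure D4:**
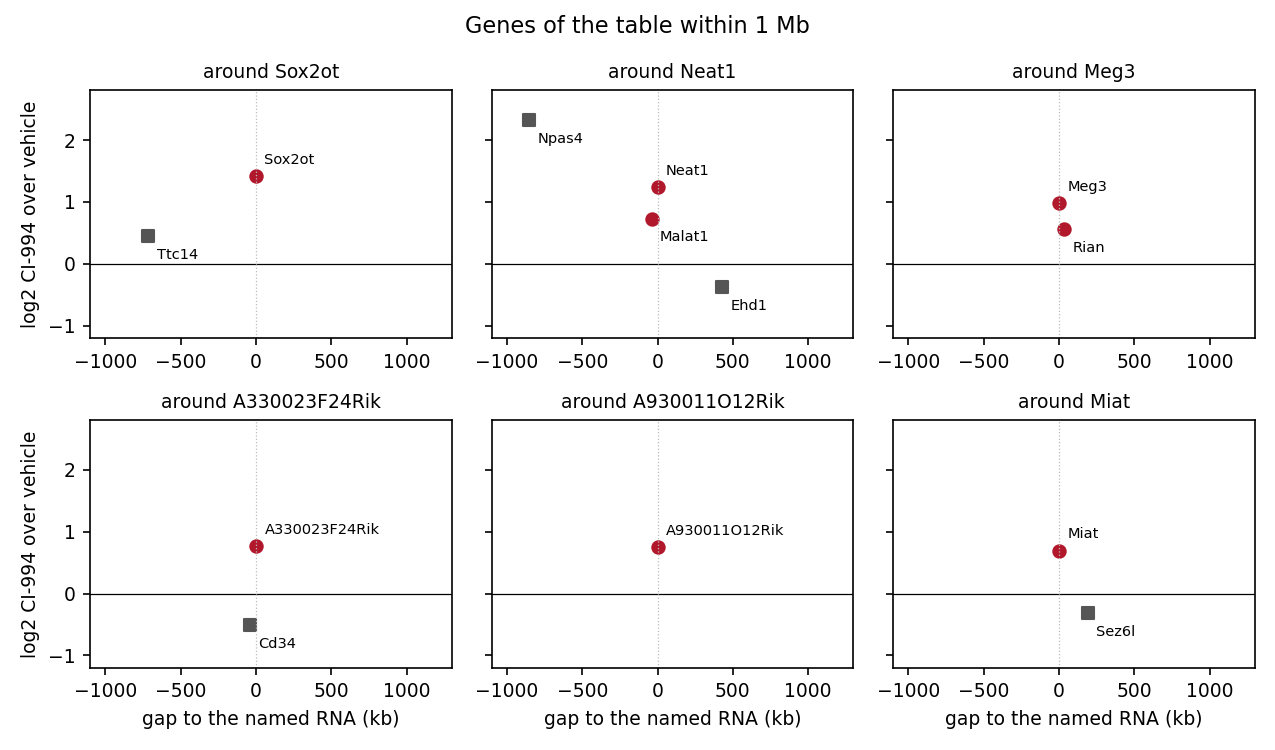
Log2 ratio of CI-994 over vehicle (vertical axis) of the genes of the table against their gap in kb to the RNA named above each panel (horizontal axis), with the 8 RNAs as red circles and other genes as grey squares. Neat1 with Malat1 and Meg3 with Rian are adjacent and both above 0, while Cd34 (-0.51) and Sez6l (-0.31) lie below 0 beside A330023F24Rik and Miat.

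Genes with a like pattern were taken as those with the closest log2 ratio, the 8 RNAs themselves left out, among genes whose group values lay within 2-fold of the member's in both groups, of which there were 36 to 96 per member. For Meg3 the closest of 36 such genes was Snhg11, whose log2 ratio differed by 0.0067, followed by Arc, a synaptic immediate early gene, at 67.4 units in CI-994 and 37.4 units in vehicle. For Miat it was the interneuron peptide Vip (log2 ratio 0.69), and then Bzrap1 (0.70). Neat1 was closest to Vat1l (1.18) and the anion exchanger Slc4a2 (1.14). Sox2ot was closest to Pon3 (1.39) and the choroid plexus marker Lbp (1.45). For A330023F24Rik, Rsph4a (0.75), a protein of motile cilia, was among the closest. A930011O12Rik was closest to Cab39l (0.76), on the choroid plexus list, and Hapln2. Lbp and Cab39l both lay below that list's median log2 ratio of 2.52, and Cab39l was its lowest gene, in a range up to 4.00. Malat1 was closest to Cab39l and Bzrap1, and Rian to Cyb561 (0.53) and the zinc transporter Slc39a13 (0.59). With 1 value per group this likeness rests on a single ratio for each gene, and the 2-fold bound uses the table's units, whose relation to transcript length is not stated.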

How the data were processed

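Hippocampal RNA of 3 CI-994 and 3 vehicle mice was sequenced. TopHat and Cuffdiff were used with mm9, as named in the submitters' processing notes. Versions, annotation, filters and strand handling were not given in the sources used here. Per the file headers, the authors' deposited table gives a normalised expression signal in arbitrary units for each group, together with a log2 value and a p-value, for 475 genes. Whether the signal is per transcript length is not stated, so differences in level between genes are not reported; the sums over marker lists and the 2-fold bound on genes of like ratio use the units as deposited. Sequencing depth is unknown, and 0 columns of other samples were left out. The log2 ratio was computed here as CI-994 over vehicle without a pseudocount. Symbols were matched to RefSeq (GRCm38.p6) for gene type, and sequences came from RefSeq and GENCODE M21, whose coordinates are named apart from mm9.

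The members, gene lists, motifs and alternatives were chosen with earlier results of these data known. Named were the 8 members, other noncoding genes, up to 3 list genes per direction, genes within 1 Mb, the 2 genes of closest ratio other than members, and Ddx3y, Uty and Xist; 1 gene that this rule names is not reported here. As planned for a table with 1 value per group, no test was run. The ratio step was run on simulated data without noise, where the set folds are recovered by construction, so the group labels and the direction were not tested by it. Python 3.11.15, numpy 2.4.6, pandas 2.3.3 and matplotlib 3.10.9 were used.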

Additional observations from a re-analysis of the deposited data

How the results depend on the processing

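No paired analysis was possible because the deposited values are 1 per group, and for the same reason no replicate could be left out. With 1 or 0.1 units added to both group values before the ratio, the log2 ratios of the 8 RNAs ran from 0.52 to 1.16 and from 0.56 to 1.38. Such an addition cannot change the sign of a ratio, so all 8 stayed above 0 by construction and only the sizes could move. Relative to the median of all genes (-0.34) the 8 RNAs ran from 0.90 to 1.76. The share of all genes above 0 was then 49.9% in place of 41.9%, which follows from the definition of a median. As that median is negative and comes from listed genes only, this setting could not bring a member below 0. All 8 were at or above 1 unit in both groups and had a deposited p up to 0.01, and 6 had one up to 0.001. Of the 11 long noncoding RNAs, 10 had a deposited p up to 0.01. If the sign named in the header of the log2 values is taken instead, 0 of the 8 were higher, by construction, with log2 ratios of -1.41 for Sox2ot, -1.24 for Neat1, -0.98 for Meg3, -0.76 for A330023F24Rik, -0.75 for A930011O12Rik, -0.73 for Malat1, -0.69 for Miat and -0.56 for Rian. Without values per mouse, depth and spread set no limit that could be computed.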

Other observations

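Among the genes that RefSeq does not annotate as protein-coding or as long noncoding RNA, the pseudogene Pisd-ps2 was at 1.50 units in CI-994 and 0.445 units in vehicle (log2 ratio 1.76), with a p-value of 0.0358 in the authors' deposited table. Reads of a pseudogene and its parent gene can be shared, so this value is uncertain. BC068157, the only symbol without a RefSeq match, was at 8.30 units in CI-994 and 11.4 units in vehicle (-0.45).

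The loci of the 8 RNAs in the table had a median length of 18.1 kb, beside 29.6 kb over all 475 genes and 23.6 kb over the genes that were higher. They ran from 3.18 kb for Neat1 to 117.6 kb for Sox2ot, the RNAs with the largest ratios of the 8. These are lengths of the table's rows, and that of Neat1 spans 15.3% of its RefSeq gene of 20.8 kb.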
